A study of Mus musculus with 6 samples.

Results

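Rab GTPases, the small proteins that direct membrane vesicles from one compartment of the cell to the next, were examined in RNA sequencing of young mouse hippocampus, the brain region needed for forming memories. The members were the rows of the deposited expression table whose symbol is Rab followed by a number and at most 1 letter from a to d. The rule found 57 of 22050 rows, and all 57 are described there as a member of the RAS oncogene family. It used symbols and no measured value. Another 23 symbols that begin with Rab, such as those of Rab effectors, lie outside the rule.

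There were 3 control libraries and 3 libraries from mice injected several times with lidocaine, which numbs tissue by closing sodium channels of nerve fibres. All 6 are labelled young. The sources used here do not give strain, age in weeks, dose, injection schedule or what the controls received, and the old animals of the study's design were not analysed here. Whether each library stands for its own mouse is not stated. The p-values therefore reflect only how far these libraries scatter, which may be technical. The samples are labelled mouse and all 22050 rows carry rat Ensembl identifiers, so genes are named as the table names them.

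A Rab protein cycles between a GTP-bound form that sits on a membrane and recruits effectors, and a GDP-bound form that a dissociation inhibitor lifts off the membrane. Exchange factors load GTP, and GTPase-activating proteins end the signal. Each Rab marks particular membranes, so that together they label the steps of secretion, endocytosis, recycling, degradation and Golgi traffic. In hippocampal neurons they serve synaptic vesicle release and the delivery and removal of receptors at synapses.

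Promoter windows are shown for the member with the highest level, the member with the smallest p between the groups and a member listed at 0 in every library, to show how these genes differ in CpG content next to their start. Windows hold the 250 bases before the annotated start, on the gene's strand, from RefSeq (GRCm38.p6), with each CpG dinucleotide in capitals. Rab6b lies at chr9:103111824-103112073 (plus strand), Rab1b at chr19:5106997-5107246 (minus strand) and Rab17 at chr1:90967668-90967917 (minus strand).
Rab6b: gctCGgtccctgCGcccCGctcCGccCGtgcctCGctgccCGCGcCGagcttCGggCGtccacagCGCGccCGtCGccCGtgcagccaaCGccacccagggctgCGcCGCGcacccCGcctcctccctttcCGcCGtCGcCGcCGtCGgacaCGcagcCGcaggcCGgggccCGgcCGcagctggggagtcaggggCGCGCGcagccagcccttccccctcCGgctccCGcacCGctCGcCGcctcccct
Rab1b: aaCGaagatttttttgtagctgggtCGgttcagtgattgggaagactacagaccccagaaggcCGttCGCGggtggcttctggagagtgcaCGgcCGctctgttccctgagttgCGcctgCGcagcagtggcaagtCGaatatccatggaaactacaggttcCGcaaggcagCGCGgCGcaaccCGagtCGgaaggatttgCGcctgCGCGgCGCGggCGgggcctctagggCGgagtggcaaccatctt
Rab17: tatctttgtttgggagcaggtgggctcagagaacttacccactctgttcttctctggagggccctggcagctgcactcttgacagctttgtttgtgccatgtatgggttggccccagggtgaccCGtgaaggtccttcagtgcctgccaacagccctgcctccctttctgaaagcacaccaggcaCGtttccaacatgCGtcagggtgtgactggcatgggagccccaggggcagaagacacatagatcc
The Rab6b window held 40 CpG dinucleotides, the Rab1b window 23 and the Rab17 window 3. A relation between CpG number and level was not tested. The window of Rab11b, at a mean of 113 FPKM, held 9. Rab23, listed at 0 to 1.04 FPKM, had a window with 42 and another with 9. A window counted as CpG-rich when it had a GC content of at least 50% and an observed-to-expected CpG ratio of at least 0.6. Mouse windows matched 46 of the 57 members by symbol, 3 of them (Rab7a, Rab9a and Rab39a) through a synonym. Of the 42 matched members with enough counts to be tested between the groups, 31 (73.8%) had a CpG-rich window, against 67.1% of 9693 tested genes and 33.4% of all 27025 genes with a window. Of the 4 matched members with too few counts to be tested, Rab17, Rab19, Rab25 and Rab32, 0 had one. The share among all untested genes was not computed, so the 0 of 4 is not read as a trait of these members. The motif TATAAA, searched on both strands, was in the windows of 3 members, Rab3b, Rab7a and Rab42 (6.52% of members and 14.3% of all genes). Among tested members the share was 7.14%, against 7.94% of tested genes. The palindrome TGACGTCA, which reads the same on both strands, was in those of Rab5a and Rab25 (4.35% of members and 1.77% of all genes), or in 2.38% of tested members against 3.01% of tested genes. The windows are of the mouse genome and were matched to rat identifiers by symbol, so they describe the genes and not the measured reads.

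Levels were compared between genes as FPKM, fragments scaled for transcript length and sequencing depth, as the authors deposited them. Rab messages made up 0.637% to 0.649% of each library's estimated counts, and the sum of their FPKM values was 1909, 1953 and 1878 for controls 1 to 3, with 1998, 1954 and 1894 for lidocaine libraries 1 to 3. The groups overlap in this sum. A small number of genes dominated it: the 5 members at a mean of 100 FPKM or more took 56.0% to 57.3% of the sum in each library. Another 27 members averaged between 10 and 100 FPKM, 16 between 1 and 10, and 9 under 1.

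**Figure D1:**
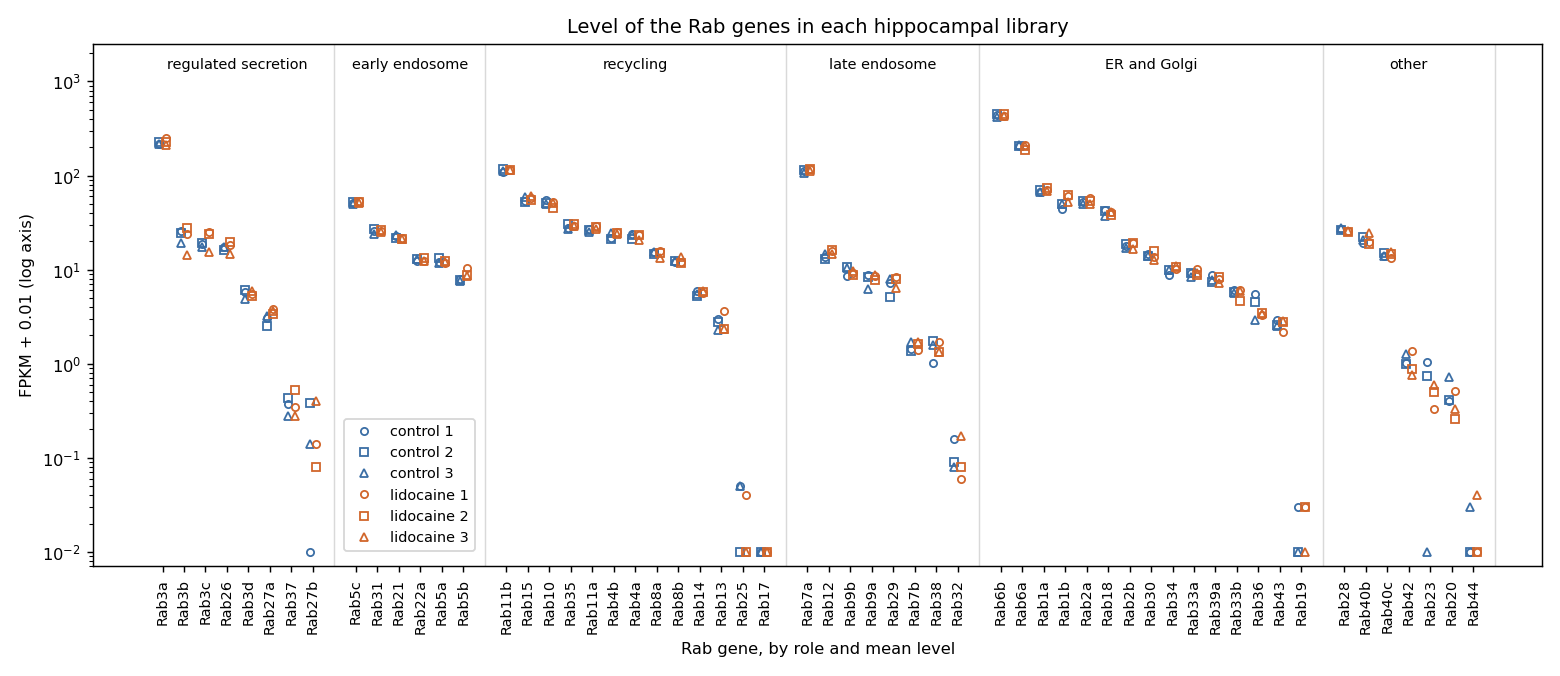
FPKM of the 57 Rab genes (with 0.01 added, log axis) in each of the 6 libraries, grouped by role and ordered by mean level; blue symbols are control and orange symbols lidocaine libraries. Rab6b lies highest, at 423 to 450 FPKM in all 6 libraries, and the symbols of both groups coincide for most genes.

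Among Rabs of the endoplasmic reticulum and Golgi, Rab6b, a Golgi Rab of retrograde transport that is mostly neuronal, was the most abundant member. It was listed at 436, 450 and 423 FPKM in controls 1 to 3 and at 434, 449 and 427 FPKM in lidocaine libraries 1 to 3. The groups overlap throughout, and the log2 fold change of lidocaine over control was -0.01 ± 0.05 (SE), with a 95% interval from -0.13 to 0.10. Its broadly expressed relative Rab6a had 207, 208 and 210.1 FPKM in controls and 211, 188 and 208 FPKM with lidocaine, where lidocaine 2 was the lowest. Rab6b thus had 2.01 to 2.39 times the FPKM of Rab6a in every library. Rab1a and Rab1b, which act between the endoplasmic reticulum and the Golgi, averaged 69.25 and 52.9 FPKM over all libraries, and Rab2a, of the same step, 52.9. Rab18, a Rab of the endoplasmic reticulum and lipid droplets, averaged 40.4 FPKM, Rab2b 18.02 and the Golgi Rab Rab30 14.2. Rab34, Rab33a, Rab39a, Rab33b, Rab36 and Rab43 averaged 2.62 to 10.035 FPKM, and Rab19 was listed at 0 or 1 count. The class summed to 924 ± 20.7 FPKM in controls and 933 ± 17.0 FPKM with lidocaine (SD, n = 3 each), 47.5% to 48.4% of all Rab FPKM.

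In the class of regulated secretion, Rab3a, the Rab of synaptic vesicles, stood far above the rest. It was listed at 216, 229 and 215 FPKM in controls and at 248, 226 and 210.2 FPKM in lidocaine libraries 1 to 3, so that lidocaine libraries held both the highest and the lowest value. Its log2 fold change was 0.04 ± 0.07 (SE; 95% interval -0.12 to 0.19). Its close relatives Rab3b and Rab3c averaged 22.4 and 19.96 FPKM and Rab3d, known from secretory granules, 5.55 FPKM. Rab3a had 8.24 to 14.9 times the FPKM of Rab3b, 9.46 to 13.6 times that of Rab3c and 35.7 to 45.1 times that of Rab3d. Rab26, which has been tied to synaptic vesicle turnover, averaged 17.2 FPKM, and Rab27a, which helps dock secretory and lysosome-related granules, 3.25 FPKM. Rab37 averaged 0.362 FPKM and Rab27b 0.182 FPKM, the latter at 0 to 14.1 estimated counts. Rab27b did not pass the filter, and its difference between groups was not tested.

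Next in the order of levels came Rabs of the endosomes. Rab11b and Rab11a, which mark recycling endosomes, averaged 113 and 27.0 FPKM, a ratio of 3.97 to 4.48 across libraries. Rab7a, which governs late endosomes and their fusion with lysosomes, averaged 113 FPKM. Rab11b exceeded Rab7a in 3 of 6 libraries, so the order of these neighbours was not the same in every library. Rab7a had 63.4 to 84.9 times the FPKM of Rab7b. The range of Rab7a lay above that of Rab1a in the 6 libraries, and that of Rab1a above that of Rab15, a neuronal Rab of early and recycling endosomes that averaged 56.2 FPKM. Rab15, Rab1b, Rab2a, Rab5c and Rab10 lay between 50.8 and 56.2 FPKM with overlapping ranges. Of the 56 neighbouring pairs in the whole order, 9 had ranges that did not overlap.

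Of the early endosome class, Rab5c was the most abundant, with 51.6 FPKM against 12.2 for Rab5a and 8.49 for Rab5b. The 3 Rab5 proteins drive fusion of early endosomes. Rab31 averaged 25.7 FPKM, Rab21, which carries integrins inward, 21.9 FPKM, and Rab22a 12.7 FPKM. In the recycling and delivery class, Rab10, which moves vesicles to the plasma membrane, averaged 50.8 FPKM and Rab35, of endosomal recycling, 29.1 FPKM. Rab4b and Rab4a, of rapid recycling, averaged 23.4 and 22.7 FPKM, and Rab8a and Rab8b, of the post-Golgi route, 14.9 and 12.3 FPKM. Rab14 and Rab13 averaged 5.645 and 2.72 FPKM. Of the Rabs known from epithelia, Rab25 had at most 1 count in a library and Rab17 was listed at 0 in all 6. By counting error alone, 0 counts allow up to 0.216 CPM in control 3 (3 counts). Rab3gap1, Rgp1 and Sgsm1, regulators of Rab traffic, were also listed at 0 in all 6 libraries, and an exact 0 can be a row that was not quantified, so absence of Rab17 cannot be read from it.

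The remaining late endosomal members were Rab12 at 14.6 FPKM, Rab9b at 9.55 and Rab9a at 8.05 FPKM, which return receptors to the Golgi, and Rab29 at 7.16 FPKM, a partner of the kinase Lrrk2. Rab38, known from the making of melanosomes, averaged 1.45 FPKM, and its relative Rab32 had 5 to 14 counts and did not pass the filter. Outside these classes, Rab28, a Rab of cilia, averaged 26.2 FPKM, and Rab40b and Rab40c, which join ubiquitin ligases, 20.8 and 14.3 FPKM. Rab42 averaged 1.04 FPKM and Rab20 0.428 FPKM. Rab44 had at most 2 counts. Rab23, a regulator of Hedgehog signalling, was listed at 100.5, 76.9 and 0 estimated counts in controls 1 to 3 and at 35.9, 52.0 and 44.7 with lidocaine. These counts are fractional and 1 is an exact 0, which can be a failed estimate, so no mean is given for Rab23.

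The comparison of lidocaine with control asked whether hippocampal Rab messages differ after repeated exposure. No Rab gene was called higher or lower. Counts passed the filter for 51 of the 57 members, and edgeR's quasi-likelihood test with Benjamini-Hochberg adjustment over 13408 genes called 0 of the 51 at an adjusted p under 0.05, where it called 0.0149% of all tested genes. DESeq2, limma-voom and limma on log2(FPKM + 1) also called 0 of 51, with 0.172% (0.104% higher and 0.0671% lower), 0.0149% and 0.0224% of all genes called. At an unadjusted p under 0.05, edgeR gave 2 members (3.92%), both higher with lidocaine, against 4.36% of all tested genes (2% higher and 2.36% lower). DESeq2 also gave 2 members, against 3.93% of all genes. Of the 51, 28 (54.9%) had a positive fold change against 49.9% of all genes. The median log2 fold change of these 51 was 0.01, with quartiles at -0.04 and 0.06, beside a median of -0.0003 and quartiles at -0.11 and 0.09 over all 13408 genes. These are bulk samples, in which fewer cells of a type and less RNA per cell cannot be told apart.

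**Figure D2:**
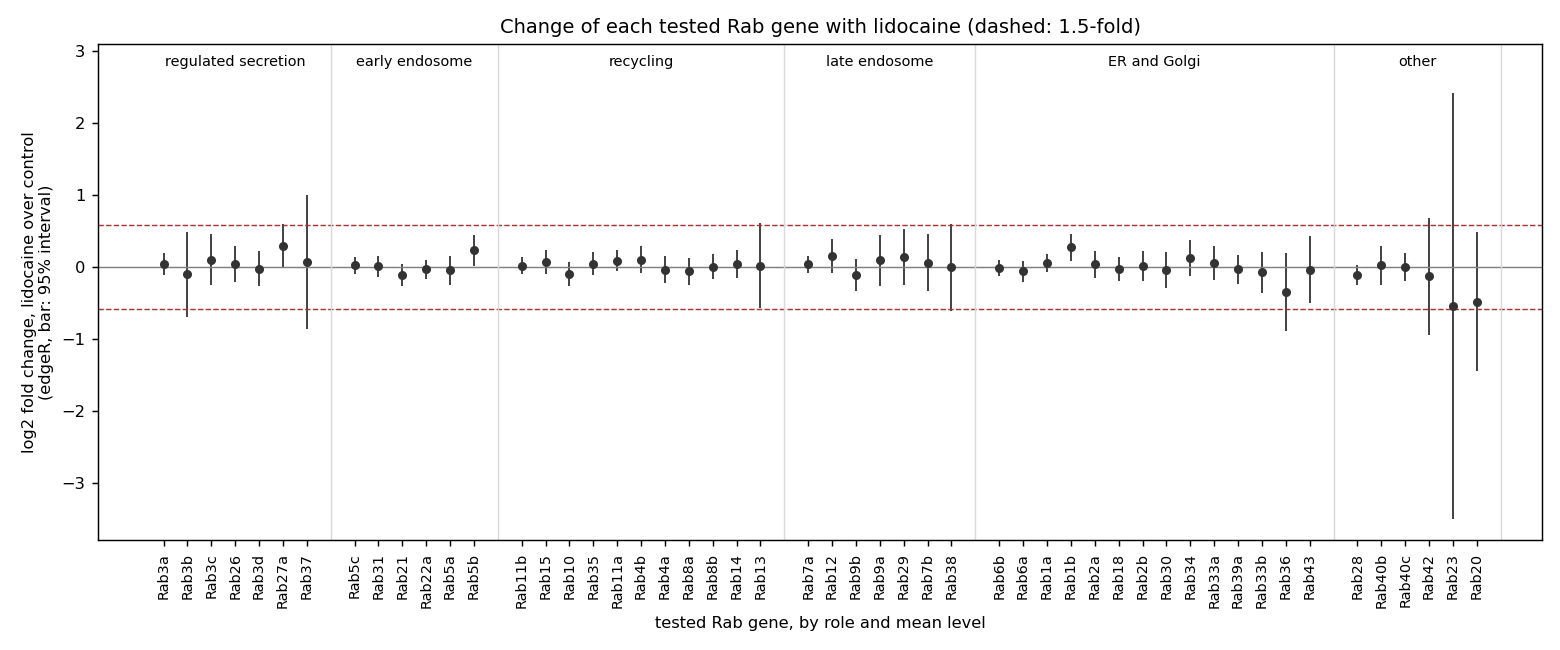
Log2 fold change of lidocaine over control in edgeR for the 51 tested Rab genes, grouped by role and ordered by mean level; bars are 95% intervals and dashed lines mark a 1.5-fold change. The intervals of 42 genes lie inside the dashed lines, and the widest interval is that of Rab23, listed at 0 in control 3.

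The intervals rest on the same scatter between libraries as the p-values, which may be technical. They describe these 6 libraries and do not bound a change between mice. For 42 of 51 members (82.4%) the 95% interval lay within a 1.5-fold change in either direction, and for 49 (96.1%) within 2-fold. Over all tested genes the shares were 63.6% and 83.3%, at a median level of 5.49 FPKM against 14.6 FPKM for the tested members. The 9 members whose interval reached beyond 1.5-fold were Rab3b, Rab36, Rab27a, Rab13, Rab38, Rab42, Rab23, Rab20 and Rab37. Rab23 and Rab20 also reached beyond 2-fold. Rab6a had a log2 fold change of -0.06 ± 0.06 (SE), Rab7a 0.04 ± 0.05, Rab11b 0.02 ± 0.05, Rab15 0.07 ± 0.07 and Rab5c 0.02 ± 0.05. Rab11a had 0.09 ± 0.06, Rab31 0.01 ± 0.06, Rab40b 0.02 ± 0.12 and Rab3d -0.02 ± 0.10. For Rab6a, Rab7a, Rab11b, Rab15 and Rab5c the interval lay within 1.5-fold.

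Rab1b had the smallest p among the members. It was listed at 44.3, 49.2 and 49.5 FPKM in controls 1 to 3 and at 61.3, 61.6 and 51.8 FPKM in lidocaine libraries 1 to 3. The groups do not overlap, and lidocaine 3 lies close to the highest control. The ratio of lidocaine to control was 1.21, with a 95% interval from 1.06 to 1.38, and a log2 fold change of 0.27 ± 0.08 (SE). It did not pass in edgeR with Benjamini-Hochberg adjustment (adjusted p = 0.995; unadjusted p = 0.00959), and over all alternatives the adjusted p ran from 0.472 in DESeq2 to 0.9998. Its relative Rab1a was listed at 66.7, 69.5 and 66.4 FPKM in controls and at 70.8, 73.1 and 69.0 FPKM with lidocaine, where the groups overlap (log2 fold change 0.06 ± 0.05, SE). The ratio of Rab1a to Rab1b was 1.51, 1.41 and 1.34 in controls and 1.15, 1.19 and 1.33 with lidocaine. The ratio was not tested.

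Rab5b was listed at 7.92, 7.76 and 7.63 FPKM in controls and at 10.4, 8.70 and 8.49 FPKM with lidocaine, with lidocaine 1 the highest and no overlap. The ratio of lidocaine to control was 1.17 (95% interval 1.01 to 1.36; log2 fold change 0.23 ± 0.09, SE), and it did not pass (edgeR with Benjamini-Hochberg adjustment, adjusted p = 0.995; unadjusted p = 0.0373). Without lidocaine 1 its log2 fold change was 0.14. Its estimated counts are fractional, as they are in 13 of the 51 tested members, so reads may have been divided with other genes. Fractional counts are not particular to Rab genes. A fit of genes with whole counts alone tested 38 members and 7407 genes, beside 51 and 13408 in the main fit. Rab5c and Rab5a had whole and fractional counts, respectively, and log2 fold changes of 0.02 ± 0.05 and -0.05 ± 0.09 (SE).

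On the CPM scale, counts were scaled to library size and to the TMM scaling factor of each library. On that scale the groups did not overlap in 7 of the 51 members (13.7%), against 9.98% of all tested genes. Rab1b, Rab5b, Rab12 and Rab27a had the higher values with lidocaine (7.84%, against 4.89% of all genes), and Rab28, Rab21 and Rab22a the lower (5.88%, against 5.09%). Rab27a was listed at 3.03, 2.51 and 3.18 FPKM in controls and at 3.83, 3.33 and 3.63 FPKM with lidocaine (log2 fold change 0.29 ± 0.13, SE). Rab12 had 13.6, 13.1 and 14.5 FPKM in controls and 15.7, 16.2 and 14.55 FPKM with lidocaine (0.16 ± 0.10). For Rab12 lidocaine 3 was the closest to the controls. Rab28 had 27.3, 26.3 and 27.6 FPKM in controls and 25.5, 25.1 and 25.4 FPKM with lidocaine (-0.11 ± 0.06), and Rab21 had 22.7, 21.9 and 23.4 against 21.45, 21.02 and 21.03 FPKM (-0.11 ± 0.06). Rab22a had 72.5, 72.2 and 73.1 CPM in controls and 71.3, 71.5 and 70.6 CPM with lidocaine (-0.03 ± 0.06), and its groups overlap in FPKM. None of the 5 passed in edgeR with Benjamini-Hochberg adjustment (adjusted p from 0.995 to 0.996). With 1 library left out, the share of members was above that of all tested genes without control 2 (14 members, 26.9% against 20.9%), control 3 (13, 24.5% against 19.5%), lidocaine 3 (12, 23.5% against 22%) and control 1 (10, 19.2% against 18.7%). It was below without lidocaine 1 (10, 18.9% against 21.4%) and lidocaine 2 (9, 17% against 18.7%), and with no scaling factors (5, 9.8% against 10.1%).

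**Figure D3:**
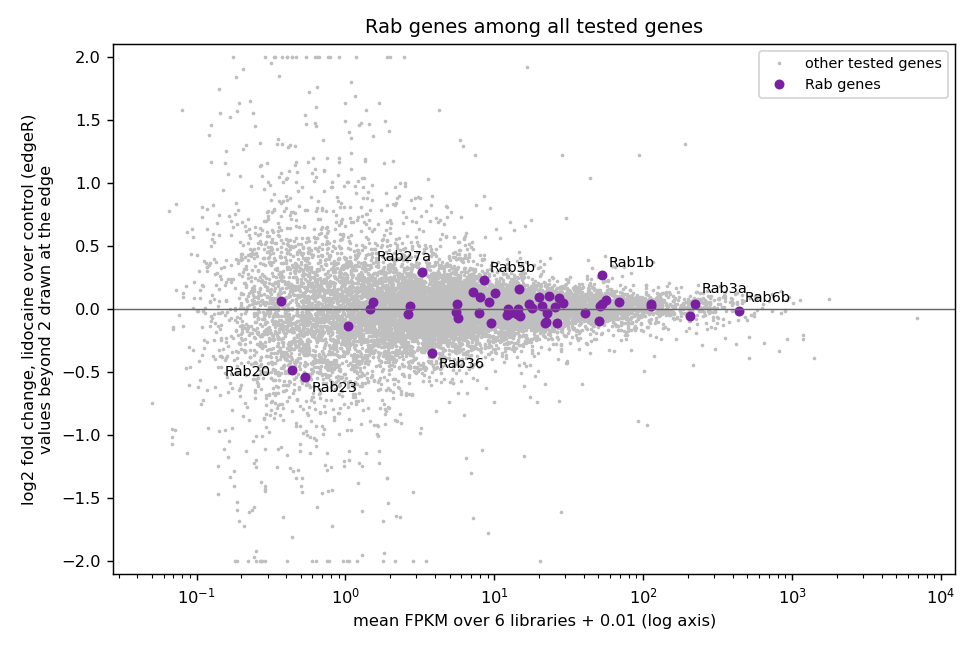
Log2 fold change of lidocaine over control in edgeR against mean FPKM over the 6 libraries (log axis) for the 51 tested Rab genes in purple and all other tested genes in grey; 40 grey genes beyond a log2 fold change of 2 are drawn at the edge. The Rab genes lie inside the cloud of all genes at their level, with Rab1b and Rab5b at 0.27 and 0.23.

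By class, the median log2 fold change was 0.04 over 7 tested members of regulated secretion, -0.01 over 6 of the early endosome, 0.02 over 11 of recycling and delivery, 0.06 over 7 of late endosomes and lysosomes, and -0.02 over 14 of the endoplasmic reticulum and Golgi. Of the 6 tested members outside these classes, 5 had a negative fold change, with a median of -0.12. This group holds the low genes Rab20, Rab23 and Rab42. Summed FPKM of the early endosome class was 132 ± 2.71 in controls and 133 ± 2.53 with lidocaine, and that of the recycling class 354 ± 1.05 and 362 ± 5.41 (SD, n = 3 each). The late endosome class summed to 152.1 ± 3.14 and 159 ± 3.36, and regulated secretion to 287 ± 10.4 and 298 ± 30.7. The larger spread of the last class in the lidocaine group came with Rab3a, Rab3b and Rab3c values that differed between libraries. The groups did not overlap in the sums of the recycling class (353.28 to 355.35 in controls, 356.7 to 367.52 with lidocaine). Nor did they in those of the late endosome class (148.74 to 154.97 and 155.1 to 161.32). They overlapped in every other class. The sums were not tested, and no share over other gene sets was computed.

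**Figure D4:**
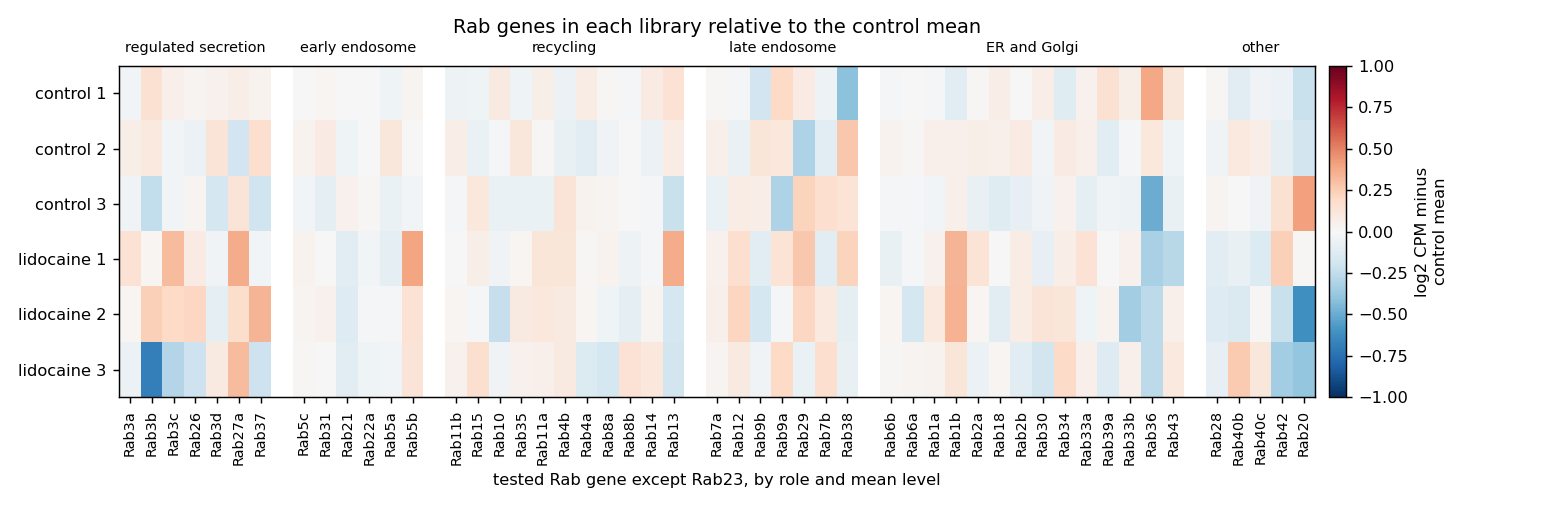
Log2 CPM of each tested Rab gene except Rab23 in each of the 6 libraries, minus the mean of the 3 control libraries, in colour from -1 to 1 (red higher, blue lower). Rab3b, Rab3c and, more faintly, Rab26 are blue in lidocaine 3 and red in lidocaine 2. Other strong cells include Rab20 at -0.62 in lidocaine 2, Rab36 at -0.495 in control 3 and Rab38 at -0.41 in control 1. Most cells are pale.

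Within groups the members varied less than the average gene. On the CPM scale their median coefficient of variation was 6.14% in controls and 7.06% with lidocaine, against 9.95% and 10.5% over all tested genes, which had lower levels. Among the 32 members at 10 FPKM or more, Rab3b, Rab3c, Rab40b and Rab26 had the highest coefficients with lidocaine on this scale, at 30.7%, 21.3%, 15.8% and 14.6%. Rab3b was listed at 25.4, 24.4 and 19.3 FPKM in controls 1 to 3 and at 23.6, 27.4 and 14.1 FPKM in lidocaine libraries 1 to 3, so that 1 lidocaine library was the highest of all and another the lowest. Rab3c was listed at 18.8, 19.3 and 17.3 FPKM in controls and at 24.99, 23.9 and 15.5 FPKM with lidocaine. Rab26 had 17.2, 16.1 and 17.2 FPKM in controls and 18.2, 19.8 and 14.5 FPKM with lidocaine. All 3 were lowest in lidocaine 3. Their log2 fold changes were -0.10 ± 0.24, 0.10 ± 0.15 and 0.04 ± 0.11 (SE). Without lidocaine 3 that of Rab3b was 0.13 and that of Rab3c 0.26, and without lidocaine 1 that of Rab3c was -0.02. None of these passed.

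Wfs1, a marker of CA1 pyramidal cells, also differed between lidocaine libraries. It was listed at 111.6, 111.4 and 113.8 FPKM in controls and at 121.5, 57.7 and 138 FPKM in lidocaine libraries 1 to 3. Among these 3 lidocaine libraries, the one with the highest Rab3b had the lowest Wfs1, and the one with the lowest Rab3b the highest Wfs1. In controls 1 to 3, Rab3b was at 25.4, 24.4 and 19.3 FPKM while Wfs1 varied little. Summed FPKM of the 4 hippocampal markers Prox1, Wfs1, Neurod6 and Zbtb20 was 144 to 156 in controls and 90.95 to 187 with lidocaine. Wfs1 made up most of this sum. Neurod6 had 37.8, 25.65 and 24.1 FPKM in controls and 34.5, 29.0 and 41.9 FPKM with lidocaine, so that lidocaine 2 lay inside the control range. Zbtb20 had 6.70, 6.58 and 6.86 FPKM in controls and 7.98, 4.20 and 7.01 FPKM with lidocaine, lowest in lidocaine 2 and highest in lidocaine 1. The part of hippocampal subfields in the spread of Rab3b was not tested. Prox1, which defines dentate granule cells, was listed at 0 to 0.13 FPKM in all 6 libraries. Estimated counts of Prox1 were exactly 0 for control 1, lidocaine 1 and lidocaine 2, and elsewhere fractional, from 20.96 to 22.24. Such a 0 can be a failed estimate, so a lack of dentate granule cells cannot be read from Prox1. The neuronal markers Slc17a7 and Camk2a were at 670 to 812 and 221 to 281 FPKM.

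Markers of other cells were examined in the same fit, and edgeR with Benjamini-Hochberg adjustment called 0 of them. Over all tested genes, 4.36% had an unadjusted p under 0.05 in edgeR and 49.9% a positive fold change. All 7 oligodendrocyte markers had negative fold changes, with 3 (42.9%) at an unadjusted p under 0.05. Their summed FPKM was 2673 to 3025 in controls and 1963 to 2597 with lidocaine. The 7 neuronal markers summed to 1524 to 1613 and 1610.2 to 1667 FPKM, the 6 astrocyte markers to 1270.1 to 1380.1 and 1296 to 1365, and the 6 microglial markers to 71.2 to 88.3 and 84.2 to 89.7. All 6 microglial markers had positive fold changes, with 1 (16.7%) at an unadjusted p under 0.05. All 5 meningeal markers had positive fold changes too, with a median log2 fold change of 0.48 and 2 (40%) at an unadjusted p under 0.05. They summed to 15.6 to 17.97 FPKM in controls and 17.3 to 24.9 FPKM with lidocaine. Of the neuronal markers 4 had a positive fold change, with 1 of the 7 (14.3%) at an unadjusted p under 0.05. The 3 endothelial markers found summed to 33.4 to 45.1 and 34.95 to 39.2. Their part in the Rab values was not tested.

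**Figure D5:**
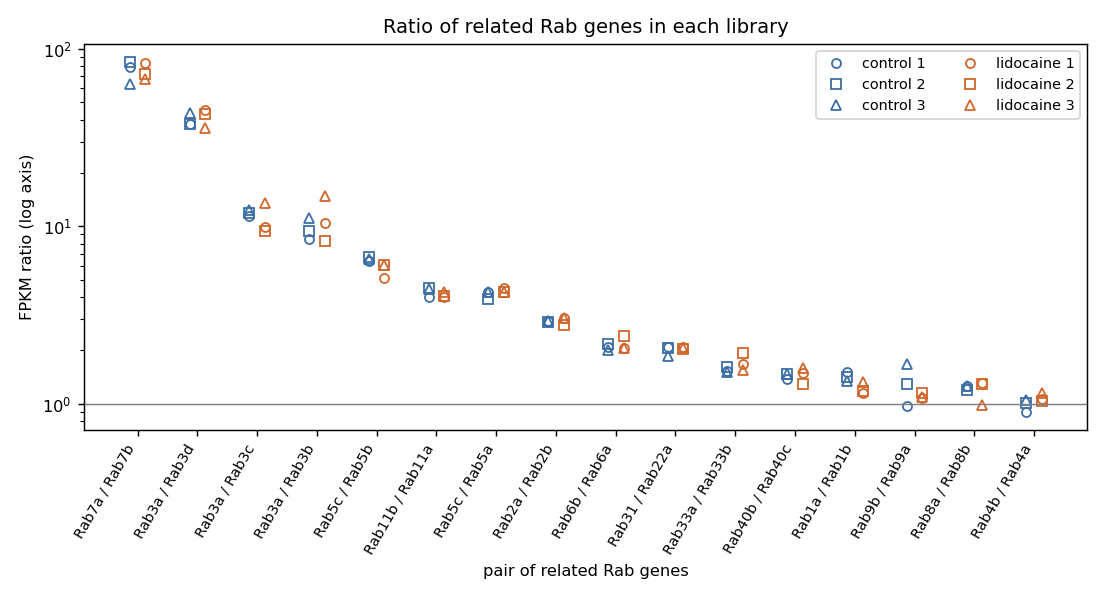
FPKM ratio of 16 pairs of related Rab genes (log axis) in each of the 6 libraries, ordered by the control mean; blue symbols are control and orange symbols lidocaine libraries, and the line marks equal levels. Rab7a over Rab7b is highest at 63.4 to 84.9, and Rab1a over Rab1b lies at 1.34 to 1.51 in controls and 1.15 to 1.33 with lidocaine.

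Which member of a related pair prevailed was mostly the same in the 6 libraries, as the plot of FPKM ratios shows. Rab2a had 2.79 to 3.06 times the FPKM of Rab2b, Rab5c 3.91 to 4.51 times that of Rab5a, Rab31 1.86 to 2.08 times that of Rab22a and Rab40b 1.29 to 1.60 times that of Rab40c. The ratio crossed 1 for Rab4b over Rab4a (0.896 to 1.16), Rab9b over Rab9a (0.972 to 1.68) and Rab8a over Rab8b (0.990 to 1.31). Related genes share stretches of sequence, and reads divided between them would enter both sides of a ratio.

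Genes that load, recycle and read Rab proteins were examined as a list of 95, of which 92 matched 1 row and 88 passed the filter. edgeR with Benjamini-Hochberg adjustment called 0 of the 88, and 4 (4.55%) had an unadjusted p under 0.05, 3 higher and 1 lower, against 4.36% of all tested genes. Their median log2 fold change was -0.0030, and their groups did not overlap in 7 (7.95%, against 9.98% of all tested genes). Rabggtb, a subunit of the enzyme that attaches the lipid anchor, had a log2 fold change of -0.07 ± 0.10 (SE). Of the Rab3 effectors, Rims1, a scaffold of the presynaptic active zone, had -0.10 ± 0.10 and Rph3a, rabphilin, 0.04 ± 0.09.

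The 4 with the smallest p were 3 TBC-domain genes, the family that holds most Rab GTPase-activating proteins, and an exchange factor subunit. Of the 21 tested GTPase-activating proteins in the list, 3 (14.3%) had an unadjusted p under 0.05 in edgeR, 2 higher and 1 lower. Over all tested genes the share was 4.36%. In that class 9 fold changes were positive and 12 negative, with a median log2 fold change of -0.02. The class was not tested as a set. Tbc1d24, tied to synaptic vesicle traffic, was listed at 1.98, 2.20 and 3.05 FPKM in controls and at 3.03, 3.86 and 5.12 FPKM with lidocaine. The groups overlap by control 3 and lidocaine 1 (log2 fold change 0.74 ± 0.25, SE). Tbc1d5, which acts on Rab7, had 7.32, 7.29 and 8.58 FPKM in controls and 8.82, 8.69 and 9.54 FPKM with lidocaine (0.22 ± 0.09). Tbc1d15, also of Rab7, had 4.48 ± 0.438 FPKM in controls and 3.73 ± 0.245 FPKM with lidocaine (SD, n = 3 each; -0.28 ± 0.11). Hps4, part of the exchange factor of Rab32 and Rab38, had 2.85 ± 0.397 FPKM in controls and 4.06 ± 0.945 FPKM with lidocaine (SD, n = 3 each; 0.48 ± 0.20), and its groups overlap, with control 2 at 3.27 FPKM and lidocaine 1 at 3.11 FPKM. Without lidocaine 2 its log2 fold change was 0.31. All 4 have fractional counts, and none passed (edgeR, Benjamini-Hochberg adjusted p = 0.995 for each).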

How the data were processed

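Per the labels' protocols, hippocampal RNA was purified on RNeasy columns and sequenced from SMARTer mRNA libraries. The genome build mm10 comes from the submitters' processing notes. Which aligner, counter and annotation were used is not stated in those sources. The deposited table holds the authors' estimated counts, which are raw and in part fractional, and FPKM values, named so in its header by the authors. With mouse samples on rat identifiers, levels may also depend on sequence likeness. Columns were matched to titles by group initial and replicate number. Library totals were 13887604 to 16984995 counts.

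Counts were rounded, filtered with filterByExpr, leaving 13408 genes, and scaled by TMM. edgeR 4.0.16 in R 4.3.3 compared lidocaine with control (robust quasi-likelihood F-test, two-sided, Benjamini-Hochberg adjusted p under 0.05). SE and 95% intervals come from its F statistic, and the fit was tested on simulated data. Alternatives were DESeq2 1.42.0, limma 3.58.1, other scalings and filters, and libraries left out. Members and lists were chosen with earlier results of these data known. Fold changes are given for members with an unadjusted p under 0.05, per class the 2 most abundant and the one with the smallest p, the Rab3 subfamily, the 4 regulators with the smallest p, Rims1, Rph3a and Rabggtb. Another regulator under this rule is not reported here. Rab1a, Rab5a, Rab21, Rab22a and Rab26 were added after their values were seen. Library pairs differed by 10.01 to 17.6 in chi-square per degree of freedom, so none looked like a duplicate.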

Additional observations from a re-analysis of the deposited data

How the results depend on the processing

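Under 15 alternatives in scaling, test, filter, unit, counts used and libraries left out, and with a threshold of 0.1, 0 Rab members and 0 regulators or effectors were called, and the named genes likewise. Over all genes the count of 2 became 23 with DESeq2, 5 with limma on log2(FPKM + 0.1), 0 among genes with whole counts and 4 at an adjusted p under 0.1. Leaving out each library in turn gave 0 to 6 genes called, 1 to 4 members at an unadjusted p under 0.05 (all genes 3.69% to 5.2%) and 9 to 14 members without overlap (all genes 18.7% to 22%), with fewer libraries to overlap. The median of the tested members ran from -0.0187 to 0.0265. Signs turned in 11 of 28 named genes when a library was left out, at log2 fold changes of -0.10 to 0.10 in the main fit. Their ranges were -0.0287 to 0.0198 for Rab6b, -0.10 to 0.0026 for Rab6a, -0.0177 to 0.0853 for Rab3a, -0.30 to 0.13 for Rab3b, -0.0021 to 0.0569 for Rab11b, -0.0329 to 0.0554 for Rab31, -0.11 to 0.10 for Rab40b, -0.0228 to 0.26 for Rab3c, -0.10 to 0.0481 for Rab3d, -0.14 to 0.0016 for Rims1 and -0.0123 to 0.13 for Rph3a. Rab6b was at 0.0022 in limma with either pseudocount (1 or 0.1). The cause was not tested.

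With the replicate number as a block, the count over all genes was 0, with 0 members called and 3 members (5.88%, against 5.09% of all genes) at an unadjusted p under 0.05. Deviations of same-numbered libraries correlated at 0.07, 0.03 and 0.01, and those of differently numbered libraries at -0.05 to 0.02. Control 3 correlated best with lidocaine 2. Whether libraries were paired cannot be settled from these values. Depth limits Rab20, Rab37, Rab42 and the 6 members that did not pass the filter, at 0 to 25 counts per library.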
